A study of Mus musculus with 31 samples.

Results

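Fibrinogen, the plasma protein that thrombin turns into the fibrin of a clot, is built from 3 chains encoded by Fga, Fgb and Fgg. The liver messenger RNA of the chains was followed across 31 BxD strains of mice. The chains were taken as every probe that the platform annotation names Fga, Fgb or Fgg, which gave 1 probe for each, or 3 of the 21765 probes with a value on every array and 3 of the 15095 genes named on them. BxD strains are recombinant inbred lines descended from the C57BL/6J and DBA/2J inbred strains, so each line carries a fixed mosaic of both parental genomes. Each array compared whole liver RNA of 1 BxD/TyJ strain, pooled from 3 male mice aged 8 weeks, with 1 pool of whole liver RNA from 9 male C57BL/6J mice of the same age. The strain RNA was labelled with Alexa Fluor 647 and the C57BL/6J RNA with Alexa Fluor 555 on every array, without dye swaps, so a dye effect on a probe adds to its mean.

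Fibrinogen is made by hepatocytes, which assemble a pair of each chain into a hexamer in the endoplasmic reticulum before secretion. The 3 genes lie side by side in mammals and belong to the acute phase genes whose transcription interleukin-6 raises in the liver during inflammation, and hepatocyte factors such as HNF1 and C/EBP proteins act on their promoters. Thrombin cuts short peptides from the alpha chain (Fga) and the beta chain (Fgb), while the gamma chain (Fgg) carries sites for polymerisation, cross-linking and the binding of platelet and leukocyte integrins.

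The promoters are shown because the chain genes are neighbours with known inputs in common, and the results turn on how far they move together from strain to strain. In the RefSeq table of assembly GRCm38.p6, the order on chromosome 3 was Fgg, Fga, Fgb, with no other measured gene between them. The 250 bases before each start are given 5′ to 3′ on the strand of the gene: Fga at chr3:83025903-83026152 on the plus strand, Fgb at chr3:83049864-83050113 on the minus strand and Fgg at chr3:83007474-83007723 on the plus strand. Capitals mark CTGGGA, the core of an interleukin-6 response element described in rat fibrinogen genes.
Fga: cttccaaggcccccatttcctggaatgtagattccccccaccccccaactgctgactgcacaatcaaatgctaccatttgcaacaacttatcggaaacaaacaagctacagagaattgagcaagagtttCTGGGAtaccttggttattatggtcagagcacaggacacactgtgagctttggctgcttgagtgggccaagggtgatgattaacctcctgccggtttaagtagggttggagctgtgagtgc
Fgb: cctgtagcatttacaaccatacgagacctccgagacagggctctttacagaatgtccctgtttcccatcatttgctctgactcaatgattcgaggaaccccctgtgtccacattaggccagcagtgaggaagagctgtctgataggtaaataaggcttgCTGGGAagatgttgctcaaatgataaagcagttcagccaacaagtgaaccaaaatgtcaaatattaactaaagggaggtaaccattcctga
Fgg: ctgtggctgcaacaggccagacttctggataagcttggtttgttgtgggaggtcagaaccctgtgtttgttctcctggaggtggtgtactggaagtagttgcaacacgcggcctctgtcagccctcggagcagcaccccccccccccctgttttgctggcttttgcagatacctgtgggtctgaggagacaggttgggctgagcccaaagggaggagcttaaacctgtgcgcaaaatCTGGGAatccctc
Each promoter held CTGGGA 1 time, with its first base 121 bases before the start in Fga, 91 bases before it in Fgb and 13 bases before it in Fgg. Searched on both strands, CTGGGA occurred in 27.0% of the 32851 RefSeq promoter windows of this length. GTTAAT, one arm of the site bound by HNF1, was found in the promoters of Fga (43 bases before the start) and Fgb (29 bases), and in 6.43% of all windows. TTGCNNAA, the form of a C/EBP site, was also found in Fga (135 bases before the start) and Fgb (80 bases), and in 9.56% of all windows. In Fgg neither of these was in the letters shown. None of the 3 motifs overlapped another within these promoters, and a match is a description of the letters only.

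The values are the normalized log ratios that the authors deposited, read here as log2 of strain over reference. Neither the log base nor the direction is stated, and the direction is the likely one, because limma forms red over green and the red dye was on the strain's RNA. All arrays had been brought to 1 common distribution, with a median of -0.0015 and an SD of 0.51. Each strain has 1 array, so a p-value measures the spread between strains, and the spread of C57BL/6J livers is left out. The arrays of strains 23, 28, 40 and 42 stood apart: their median Pearson r with the other arrays over all probes was 0.24, 0.37, 0.06 and 0.33, against 0.57 to 0.79 for the other 27 arrays. Results are therefore given with and without these 4 strains, except that some r values of listed genes are given over the other 27 strains only. Of the 12 hepatocyte marker genes listed, 11 were measured, each by 1 probe. By limma 6 of those were higher, 4 lower and 1 not past the test, where 37.4% of all probes were higher and 37.6% lower, and a ratio to another liver does not show how abundant such a transcript is. In RNA of whole liver, fewer hepatocytes and less RNA per hepatocyte cannot be told apart.

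The alpha chain gene was slightly lower in the strains than in C57BL/6J, and the means of the other chain genes did not pass the test over 31 strains. Fga ranged between -0.61 in strain 8 and 0.44 in strain 40, with a median of -0.14. It lay below the C57BL/6J level in 19 strains and above it in 12. Its mean was -0.12 ± 0.05 (SE, n = 31; 95% interval -0.22 to -0.02), which is 0.919 of the reference level, and passed the limma test over all probes (Benjamini-Hochberg adjusted p = 0.0303). That share of calls is common here, since 75% of all probes passed in either direction and 37.6% passed below the reference, and 31.5% of probes had a smaller mean in absolute value than Fga.

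Fgb ranged between -0.46 in strain 23 and 0.63 in strain 42, with a median of 0.07. It was above the reference in 19 of 31 strains. The mean of Fgb was 0.07 ± 0.05 (SE, n = 31; 95% interval -0.03 to 0.18; limma adjusted p = 0.202), and its sign turned with the correction for place on the array (-0.02).

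Fgg had a far wider spread, between -1.29 in strain 40 and 1.19 in strain 1, with a median of 0.11. It was above the reference in 18 of 31 strains. The mean of Fgg was 0.10 ± 0.11 (SE, n = 31; 95% interval -0.12 to 0.31; limma adjusted p = 0.397). This value depended on the 4 arrays that stood apart, all of which were among the 6 lowest for Fgg. Without them Fgg was higher than the reference by 0.25 ± 0.09 (SE, n = 27; limma adjusted p = 0.0112), a fold of 1.19, in 18 of 27 strains, while 78.1% of all probes passed, 39.9% of all probes above the reference and 38.2% below. Over the same 27 strains Fga was at -0.15 ± 0.05 (SE; limma adjusted p = 0.00905) and Fgb at 0.05 ± 0.05 (SE; limma adjusted p = 0.364).

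Between the highest and the lowest strain the level differed 2.08-fold for Fga, 2.12-fold for Fgb and 5.58-fold for Fgg. The SD over 31 strains was 0.29 for Fga, 0.30 for Fgb and 0.62 for Fgg, against a median SD of 0.24 over all probes. The SD of Fgg was larger than that of 96.6% of all probes, that of Fgb larger than 70.9% and that of Fga larger than 67.7%. Leaving out the 4 strains lowered the SD of Fgg to 0.50, still larger than that of 96.8% of probes. With 1 array per strain, a difference between strains holds the differences between the pools and the error of the arrays together.

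**Figure D1:**
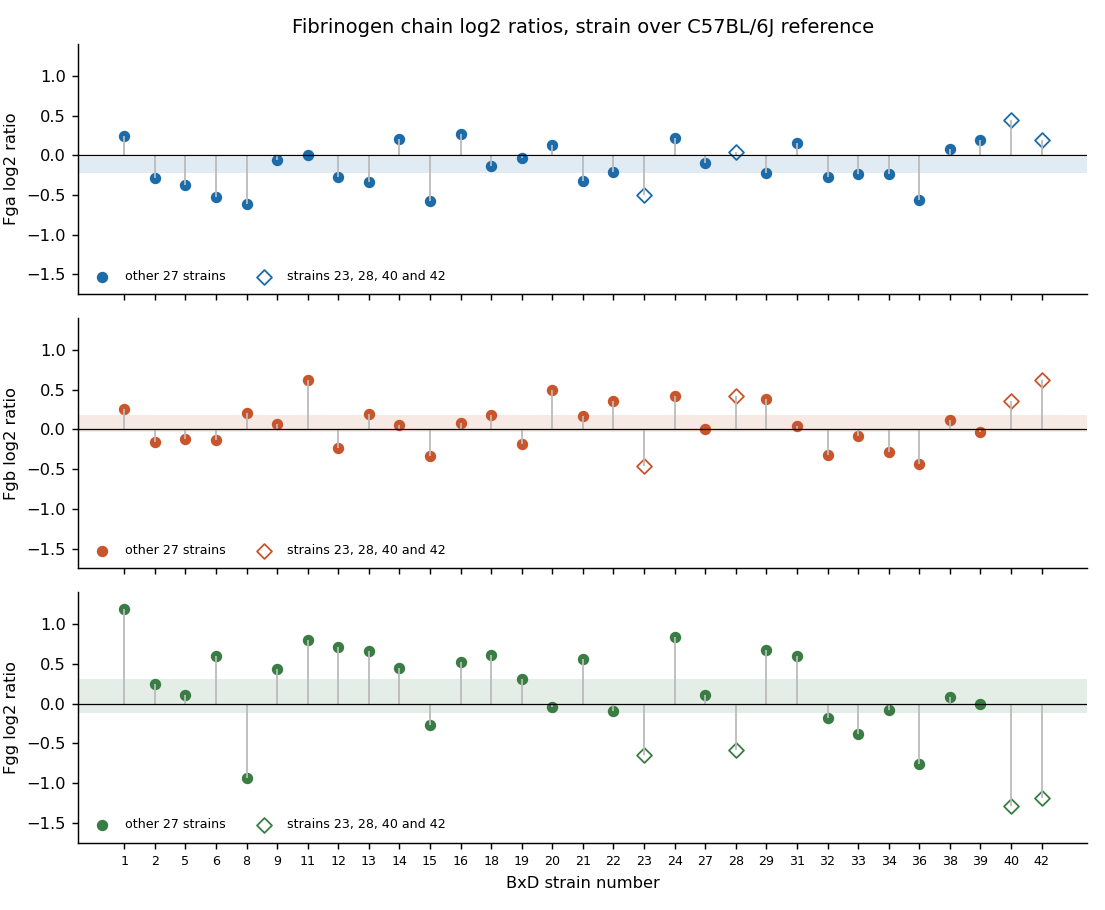
Log2 ratio of strain over the C57BL/6J reference (vertical axis) for Fga, Fgb and Fgg in each of the 31 BxD strains (horizontal axis, by strain number). Points are single arrays, open diamonds are strains 23, 28, 40 and 42, and shaded bands are the 95% intervals of the means; Fgg spans -1.29 to 1.19, Fga only -0.61 to 0.44.

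Some strains were low or high for all 3 chains. Strain 36 had -0.56 for Fga, -0.43 for Fgb and -0.76 for Fgg. Strain 23 had -0.50, -0.46 and -0.65 in the same order of chains. Strain 15 was also low for all of them, at -0.58, -0.34 and -0.27. At the other end, strain 24 was above the reference throughout, with 0.22 for Fga, 0.42 for Fgb and 0.83 for Fgg. Strain 1 likewise had 0.25, 0.25 and 1.19. Other strains split the chains: strain 8 had the lowest Fga (-0.61) and a low Fgg (-0.93), but an Fgb of 0.20. In strain 6 Fga was at -0.53 and Fgg at 0.60. Strains 40, 42 and 28 were above the reference for Fga (0.44, 0.19 and 0.04) and Fgb (0.36, 0.63 and 0.42), but far below it for Fgg (-1.29, -1.19 and -0.59).

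Fga and Fgb varied together across the 31 strains, with a Pearson r of 0.57 (95% interval 0.27 to 0.77) and a Spearman rho of 0.55. The permutation p of r was 0.00096 (two-sided, 100000 resamples; adjusted p = 0.00288 over the 3 pairs of chains). Without strains 40 and 8, the 2 farthest from the median of Fga, r was 0.61. The points are independent strain pools, but all were measured against the same C57BL/6J pool. Leaving out any single strain gave an r between 0.52 and 0.63.

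Over all 31 strains no such relation was seen for Fgg. The r of Fga with Fgg was 0.13 (95% interval -0.24 to 0.46; rho 0.19; permutation p = 0.499, adjusted p = 0.694). The r of Fgb with Fgg was 0.07 (95% interval -0.29 to 0.42; rho 0.18; permutation p = 0.694, adjusted p = 0.694). Both intervals still hold moderate correlations. Without the 2 strains farthest from the median of the first chain, these values were 0.24 (without 40 and 8) and 0.17 (without 42 and 11).

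Without strains 23, 28, 40 and 42 all 3 pairs were positively correlated. The r of Fga with Fgb was 0.45 (95% interval 0.09 to 0.71; rho 0.45; permutation p = 0.0182, adjusted p = 0.0273). That of Fga with Fgg was 0.51 (95% interval 0.17 to 0.75; rho 0.41; permutation p = 0.00592, adjusted p = 0.0178). That of Fgb with Fgg was 0.42 (95% interval 0.05 to 0.69; rho 0.45; permutation p = 0.0294, adjusted p = 0.0294). When the 2 strains farthest from the median were left out as well, the relation of Fgb with Fgg rested on strains 11 and 36, with an r of 0.25 (permutation p = 0.223) without them. The relations of Fga with Fgb and with Fgg held without strains 16 and 1 (r = 0.45 and 0.44, permutation p = 0.0243 and 0.0277). With strain 23 kept and only strains 28, 40 and 42 left out, the 3 values over 28 strains were 0.50, 0.55 and 0.48 (permutation tests, adjusted p = 0.00917, 0.00732 and 0.00917). This setting was not planned beforehand. It leaves out strains with Fga and Fgb above the reference and Fgg far below it, and keeps strain 23, which was low for all 3 chains. It therefore cannot test how Fgg relates to the other chains.

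**Figure D2:**
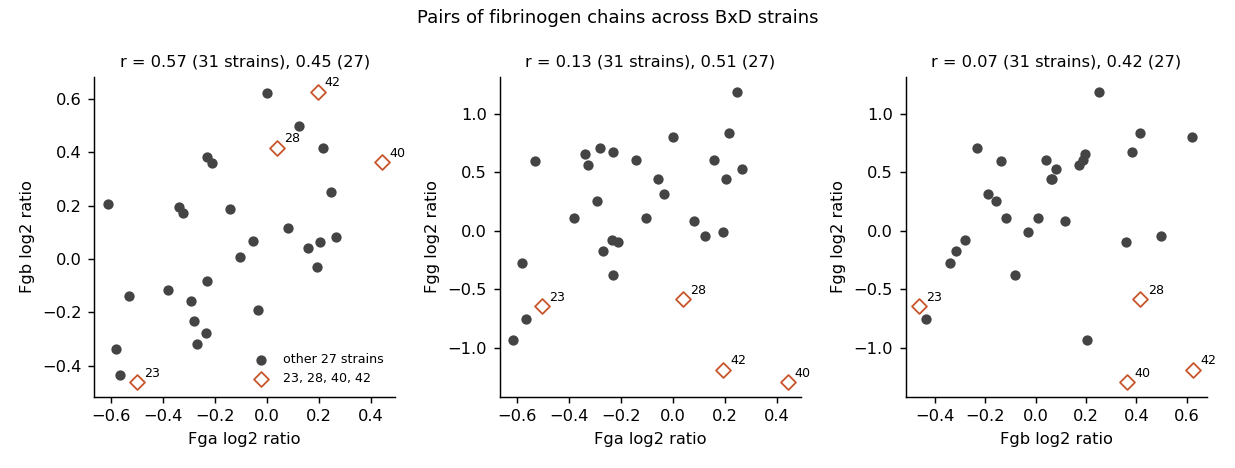
Log2 ratios of each pair of chains, 1 point per BxD strain, with strains 23, 28, 40 and 42 as open diamonds. Strains 40, 42 and 28 lie at the lower right of both plots that involve Fgg, where r is 0.13 and 0.07 with them and 0.51 and 0.42 over the other 27 strains.

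The sample accessions come in the order of strain number, and the strains were also split into numbers 1 to 14 and 15 to 42. Within the 10 strains numbered 1 to 14, r was 0.39 for Fga with Fgb, 0.64 for Fga with Fgg and 0.13 for Fgb with Fgg (permutation tests, adjusted p = 0.401, 0.109 and 0.712). Within the 17 strains numbered 15 to 42, without the 4 that stood apart, r was 0.53, 0.56 and 0.61 (permutation tests, adjusted p = 0.0301, 0.0301 and 0.0292). Without strains 15 and 36, neither relation of Fga held in this set (r = 0.25 with Fgb and 0.30 with Fgg over 15 strains, permutation p = 0.362 and 0.276). The labels name no batch.

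How unusual these correlations are depends on how many other probes reach them. Across 31 strains, Fgb ranked 7 among 21764 other probes by its r with Fga, and Fga ranked 4 by its r with Fgb. No probe passed a limma regression on Fga or on Fgb after adjustment over all probes (0% called; 894 and 893 probes at an unadjusted p under 0.05), and the adjusted p of the chains themselves was 0.995 for Fgb on Fga and 0.988 for Fga on Fgb. The r between the chains was thus near the top of all probes without passing a test that asks the question of every probe.

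Fgg stood in another place. Its r with 24.2% of all probes was at least 0.5 in absolute value over 31 strains, against 0.303% for Fga and 0.317% for Fgb. In the regression on Fgg 35.5% of all probes passed, 18.4% in the same direction and 17.1% in the opposite one. Among 21764 probes ranked by r with Fgg, Fga was at place 9293 and Fgb at place 10289. Over 27 strains the regression on Fgg still called 11.8% of all probes. Fga was among them (adjusted p = 0.0411) and Fgb was not (adjusted p = 0.110), while 5.65% of probes had a higher r with Fgg than Fga did and 11.5% a higher one than Fgb. The regressions on Fga and on Fgb called 0 and 1 probes there (0% and 0.00459% of all probes, the 1 probe in the opposite direction; 1392 and 823 at an unadjusted p under 0.05), and no chain was called. The r of Fga with Fgg is the same in both directions, and the unadjusted limma p was close (0.00411 for Fga on Fgg, 0.00298 for Fgg on Fga). The adjusted p was 0.0411 and 0.774, so the call of Fga on Fgg alone reflects the adjustment over all probes and shows no direction. Fgg ranked 84 by its r with Fga and 236 by its r with Fgb over 27 strains.

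**Figure D3:**
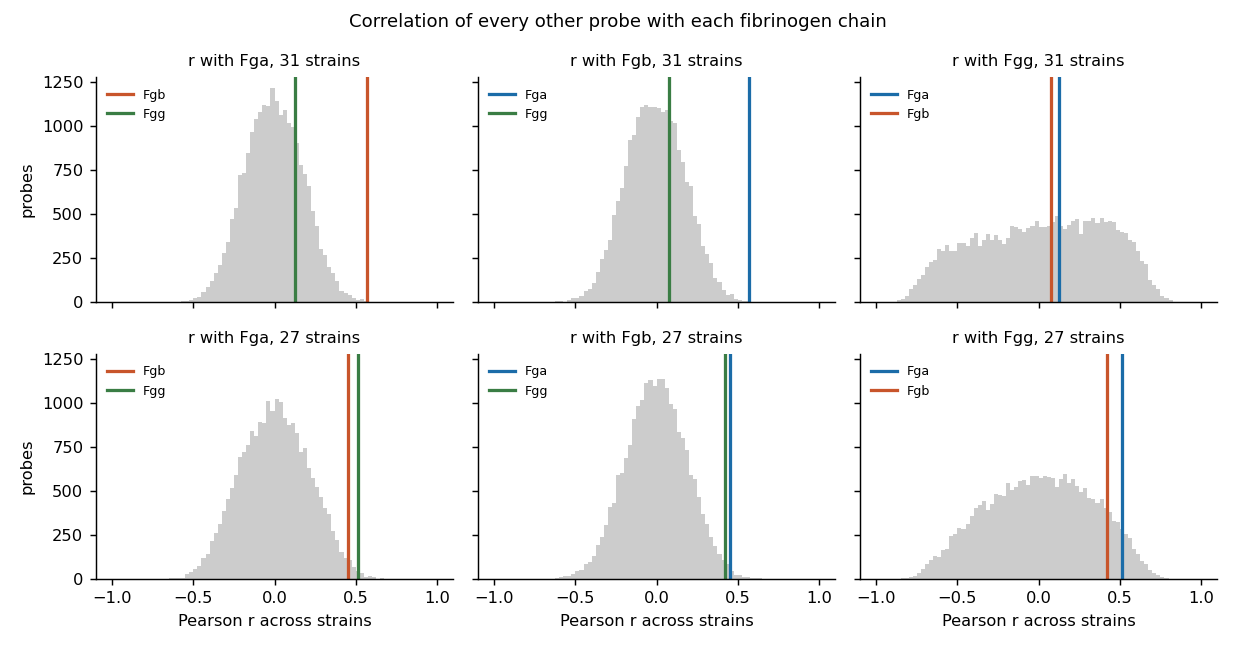
Histograms of the Pearson r of every other probe with Fga, Fgb and Fgg, over 31 strains (top) and 27 strains (bottom), with lines at the r of the other chains. The histogram for Fgg is the widest, with 24.2% of probes at 0.5 or beyond in absolute value over 31 strains, against 0.303% for Fga and 0.317% for Fgb.

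The level of Fgg moved with how closely an array resembled the others. Its r with the array's median r was 0.70 over 31 strains and 0.41 over 27, whereas for Fga these values were -0.23 and 0.11 and for Fgb -0.19 and -0.07. With the first principal component of all probes, which held 29.2% of the variance over 31 strains and 18.8% over 27, the absolute r of Fgg was 0.81 and 0.74. For Fga it was 0.12 and 0.25, and for Fgb 0.15 and 0.05. These values are descriptions, and the part of array quality in the spread of Fgg was not tested.

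With the first component removed from all 31 arrays, r was 0.56 for Fga with Fgb, 0.37 for Fga with Fgg and 0.32 for Fgb with Fgg (permutation tests, adjusted p = 0.00315, 0.0587 and 0.0743). With the 4 strains left out and the first component of the others removed, a setting chosen after the values were seen, the 3 values were 0.46, 0.50 and 0.57 (permutation tests, adjusted p = 0.0172, 0.0110 and 0.00627). In that setting the regression on Fgg called 0 probes by limma, with 1473 at an unadjusted p under 0.05. Among all probes ranked by r with Fgg, Fgb then stood at place 47 and Fga at place 157. With the first component removed from all 31 arrays, Fga stood at place 1086 in that ranking and Fgb at place 1679.

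**Figure D4:**
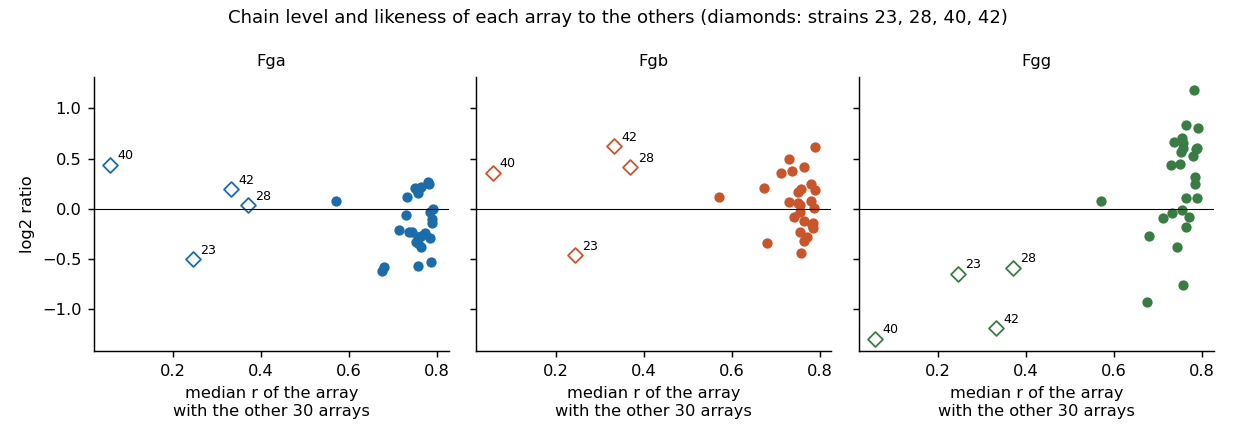
Log2 ratio of each chain (vertical axis) against the median Pearson r of the array with the other arrays over all probes (horizontal axis), 1 point per strain, with strains 23, 28, 40 and 42 as diamonds. Those arrays are low for Fgg (-0.59 to -1.29) but spread on both sides of 0 for Fga and Fgb.

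Probes were ranked by mean r with the 3 chains, counting only those with 1 gene symbol that is no clone name. Over 31 strains the gene most like the chains was then Slc43a1, an amino acid transporter, at 0.50. Next was Kng1, which encodes the kininogen of the contact pathway of coagulation, at 0.48 (0.46 with Fga, 0.45 with Fgb and 0.52 with Fgg). Fabp5, a fatty acid binding protein, followed at 0.46. The other 7 of the 10 highest lay between 0.42 and 0.46: Cblif, Tmem54, Ssmem1, Cyfip2, Fam166c, Pacsin3 and Nup93. The lowest 5 were Bloc1s6 (-0.45), Dennd6b, Zscan21, a probe named Tcrb-V8.2 and Cfap161 (-0.42), and the name Tcrb-V8.2 stands on 151 probes of the array.

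Over 27 strains the highest mean r in the same ranking was that of Mybl2, a transcription factor of the cell cycle, at 0.61. Slc43a1 followed at 0.58, then Man2a1, a mannosidase of the Golgi, and Nup93, a nuclear pore protein, at 0.57 each. Tmsb10 was at 0.56, on a probe at an every 8th place (its identifier is a multiple of 8), where probes may share a shift. Such shifts need not be limited to these places, since the correction for place also moved the mean of Fgb, whose probe lies elsewhere. Pdcd1lg2, Tmem54, Cars, Recql and Dnase1l3 lay between 0.54 and 0.55. The lowest were 2 probes named Tcrb-V8.2, Rcn3 (also at an every 8th place), Bloc1s6 and Gmeb1, between -0.54 and -0.56. Of the 10 highest genes, 3 were shared by both sets of strains, namely Slc43a1, Tmem54 and Nup93, and so were 2 of the 5 lowest probes. Kng1 had a mean r of 0.53 over 27 strains.

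Genes whose products act on fibrinogen lay on both sides of the reference. Of the 7 probes for fibrin formation and cross-linking, 3 were higher than the reference, 3 lower and 1 did not pass, against 37.4% of all probes higher and 37.6% lower. F2, which encodes the thrombin precursor, was higher at 0.72 ± 0.08 (SE, n = 31; limma adjusted p = 1.17e-09). Serpinc1, the antithrombin gene, was higher at 1.06 ± 0.09, and F13b, the carrier subunit of the cross-linking factor XIII, was lower at -0.30 ± 0.05. F3 (tissue factor) was lower at -1.12 ± 0.08, but its probe is at an every 8th place. The median r of these probes was 0.09 with Fga, 0.02 with Fgb and -0.02 with Fgg over 27 strains, where the medians of all probes were 0.00, 0.00 and 0.02. Over 31 strains the list's medians were 0.00, 0.04 and 0.20. On Fgg 1 of the 7 probes passed over 27 strains, where 11.8% of all probes did, and 3 passed over 31, where 35.5% did. The 1 over 27 strains was Thbd (r = 0.58, limma adjusted p = 0.0161). Over 31 strains its r with Fgg was 0.78 (limma adjusted p = 1.01e-05).

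Of the 7 probes for fibrin breakdown, 3 were higher and 4 lower, against 37.4% of all probes higher and 37.6% lower. Plg, which encodes the precursor of the fibrin-cutting enzyme plasmin, was above the reference in 1 of 31 strains and lower on average, at -0.66 ± 0.09 (SE). Serpinf2, the plasmin inhibitor, was higher at 0.54 ± 0.06. Over 27 strains Plg had an r of 0.33 with Fga, 0.35 with Fgb and 0.50 with Fgg (limma adjusted p on Fgg = 0.0417). Over 31 strains these values were 0.13, 0.17 and 0.36, and the call on Fgg was lost (limma adjusted p = 0.0807). Hrg, histidine-rich glycoprotein, had an r of -0.58 with Fgg over 27 strains (limma adjusted p = 0.0147), but of -0.25 over 31 (limma adjusted p = 0.253). Plg and Hrg were the 2 of 7 probes that passed on Fgg over 27 strains, where 11.8% of all probes did. Over 31 strains 2 of 7 also passed, where 35.5% of all probes did. Those were Serpinf2 (r = 0.61) and Plat (0.46, every 8th place). The upstream coagulation factors, 15 probes of 14 genes, were higher at 9 probes, lower at 1 and not past the test at 5. The same shares of all probes (37.4% higher, 37.6% lower) apply to them. Of these Pros1, the protein S gene, was highest at 1.09 ± 0.09. Their median r over 27 strains was 0.01 with Fga, 0.05 with Fgb and -0.06 with Fgg, and over 31 strains -0.11, -0.06 and 0.11.

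The acute phase genes of the interleukin-6 class were higher in 9 of 13 probes, lower in 1 and not past the test in 3, where 37.4% of all probes were higher and 37.6% lower, with a median of 0.35. Hp, haptoglobin, which binds free haemoglobin, was at 1.15 ± 0.11 (SE) and above the reference in 31 of 31 strains. Apcs, serum amyloid P, was at 1.21 ± 0.15 and Hpx, the haem carrier hemopexin, at 0.89 ± 0.09. The means of the chains, -0.12 to 0.10, lie far below those of these 3 genes, with no test made between them. These 3 have the largest means in absolute value of the 13 probes, so they do not stand for the whole list. Itih3 of the same list, for example, was at 0.06 ± 0.04 and did not pass. Over 27 strains the r of Hp was -0.06 with Fga, -0.05 with Fgb and -0.38 with Fgg, and that of Apcs was -0.05, -0.09 and -0.34. Over 31 strains the r with Fgg was -0.11 for Hp and -0.05 for Apcs. Cp, the copper carrier ceruloplasmin, had an r of 0.33 with Fga, 0.39 with Fgb and 0.72 with Fgg (limma adjusted p on Fgg = 0.00227). Crp, C-reactive protein, also passed on Fgg (r = 0.49; limma adjusted p = 0.0474), which makes 2 of 13 probes, where 11.8% of all probes passed. Over 31 strains 6 of 13 passed, where 35.5% of all probes did, and the r with Fgg was 0.77 for Cp and 0.56 for Crp. Over 27 strains the list's median r was -0.02 with Fga, 0.12 with Fgb and 0.12 with Fgg.

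Of the 14 probes for interleukin-6 signalling, 4 were higher, 8 lower and 2 not past the test, where 37.4% of all probes were higher and 37.6% lower. Among the lower probes, those of Il6, Socs3, Stat3 and Socs1 lie at every 8th places, as does that of Cish among the higher ones. Stat3 and Cish are outside the rule for naming genes and are named for their place only. Over 31 strains 4 of the 14 passed on Fgg by limma, against 35.5% of all probes: Il6 (r = -0.65) and Socs3 (-0.53), both at every 8th places, Il6st at 1 probe (-0.42) and Ptpn11 (0.43 at 1 probe), the last named after its value was seen. Over 27 strains 0 of the 14 passed on Fgg by limma (4 at an unadjusted p under 0.05), against 11.8% of all probes, with an r of -0.48 for Il6 and -0.02 for Socs3 (limma adjusted p = 0.0683 and 0.956). Il6ra, the receptor for interleukin-6, was higher at 0.56 ± 0.06 (SE), and Il6st, its signalling partner gp130, was lower at both probes, with -0.33 ± 0.03 and -0.21 ± 0.05. Tyk2, a kinase of this family of receptors, was higher at 0.80 ± 0.18 and had an r of -0.45 with Fga, -0.43 with Fgb and -0.36 with Fgg over 27 strains, and of -0.46, -0.43 and -0.14 over 31. Socs3, the feedback inhibitor, was lower at -1.48 ± 0.09 in 31 of 31 strains, on a probe at an every 8th place.

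Of the 15 probes of 11 liver transcription factor genes, 7 followed Fgg over 31 strains, all in the opposite direction, where 17.1% of all probes did, and 4 followed Fgg over 27 strains, again all in the opposite direction, where 6.01% did. The 4 were Foxa3 (r = -0.60, every 8th place), Foxa2 (-0.57 at 1 of its 2 probes, -0.45 at the other), Cebpa (-0.57) and Cebpb (-0.50). Of the 15 probes, 5 had a positive r with Fgg over 27 strains and 4 over 31. Foxa1 had an r with Fgg of 0.38 at 1 probe and 0.01 at the other over 27 strains, and of 0.42 and -0.47 over 31. Foxa2 and Foxa3 are forkhead factors that open liver enhancers, and Cebpa and Cebpb encode C/EBP proteins. Over 31 strains the r with Fgg was -0.58 for Foxa3, -0.61 and -0.58 for the Foxa2 probes and -0.48 for Cebpa, but -0.06 for Cebpb, which was not called there (limma adjusted p = 0.811). Over 27 strains without the first component no probe passed on Fgg, these included. With Fga the r over 27 strains was -0.34 for Foxa3, -0.18 for the called Foxa2 probe, -0.34 for Cebpa and -0.07 for Cebpb. On average over the strains, Cebpb was higher than the reference at 0.77 ± 0.07 (SE) and Cebpa at 0.18 ± 0.05, and Foxa3 was at 0.01 ± 0.05. Hnf4a was lower at 1 probe (-0.79 ± 0.05) and higher at the other (0.20 ± 0.03).

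Genes of folding and secretion had a higher median r with Fgg than with Fga or Fgb, with no test of that difference. Of 14 probes of 13 genes for chain assembly and secretion, 5 followed Fgg in the same direction over 27 strains, where 5.79% of all probes did, and the list's median r with Fgg was 0.40, against 0.02 over all probes. They were Hsp90b1 (r = 0.76), the chaperone Canx (0.68), P4hb (0.65), Pdia4 (0.59) and Hspa5 at 1 of its 2 probes (0.54, and -0.03 at the other). Over 31 strains 5 probes passed as well, where 18.4% of all probes did in the same direction, with Pdia3 (r = 0.54) called and Hspa5 (0.39, limma adjusted p = 0.0603) not, and the list's median r was 0.36. P4hb and Pdia4 encode disulfide isomerases of the endoplasmic reticulum, and Hspa5 the chaperone BiP that binds fibrinogen chains in human liver cells; P4hb, Hspa5 and Pdia3 were named after their values were seen. With Fga the r over 27 strains was 0.44 for Hsp90b1 and 0.43 for Pdia4, and with Fgb no more than 0.24 for any of the 14 probes. The list's median r was 0.03 with Fga and 0.10 with Fgb. None of these probes passed on Fgg once the first component was removed over the 27 strains, as no probe did.

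**Figure D5:**
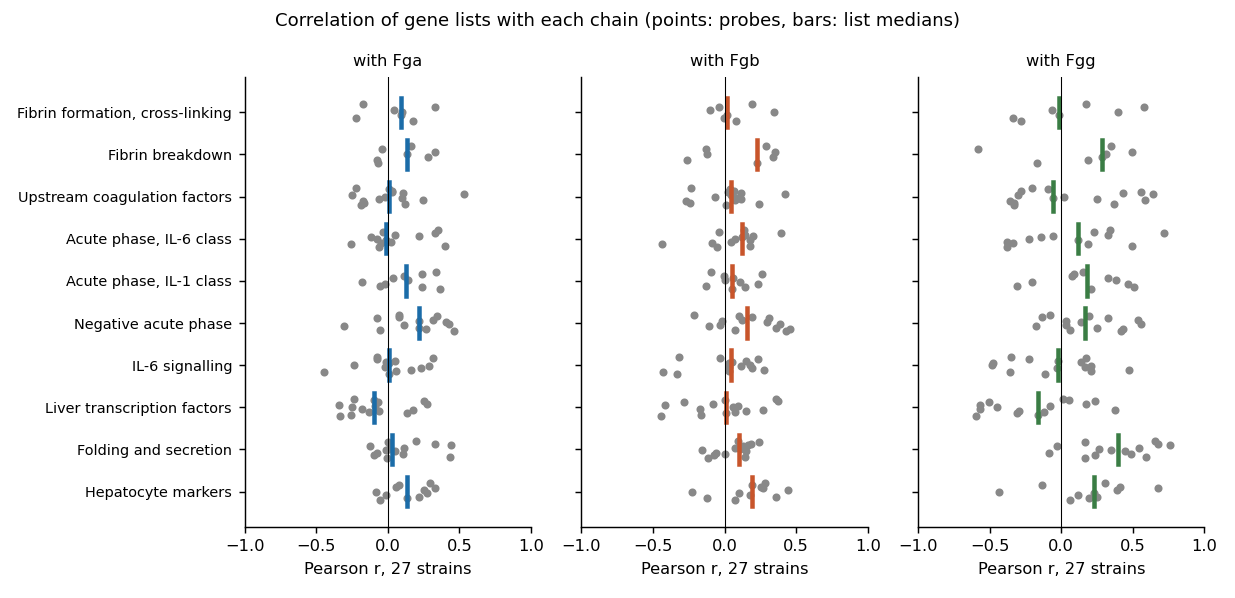
Pearson r over 27 strains of each probe of a gene list (points) with Fga, Fgb and Fgg, with bars at the list medians. The folding and secretion list has its median at 0.40 with Fgg but at 0.03 with Fga and 0.10 with Fgb.

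The genes on either side of the cluster on chromosome 3 were compared as well. Plrg1, a splicing factor gene and the nearest measured one on the side of Fgb, was at 0.11 ± 0.04 (SE, n = 31) and had an r of 0.55 with Fga, 0.13 with Fgb and 0.50 with Fgg over 27 strains, and of 0.18, -0.14 and 0.50 over 31. On the side of Fgg, Lrat, which esterifies retinol, was at -0.34 ± 0.04 and had an r of 0.08, -0.01 and -0.30 over 27 strains, and of -0.01, -0.21 and -0.07 over 31. The r of the other neighbours (Rbm46os at 2 probes, Npy2r at an every 8th place, 1700028M03Rik and Sfrp2) lay between -0.40 and 0.32 over 27 strains and between -0.51 and 0.45 over 31.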

How the data were processed

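Two-colour liver arrays of 31 BxD strains were analysed, 1 array each. The authors deposited normalized log ratios, read as log2, with R 2.0.0 and limma named in the submitters' processing notes; how background was corrected and values normalized is not given in the sources used here. Of 23040 features, 1275 were empty on every array. Names came from the platform annotation, updated from RefSeq (15964 of 16642 probes with 1 gene). Promoters are RefSeq's, of build GRCm38.p6; all 3 chains matched.

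Panel means (intercept) and regressions of every probe on each chain were fitted with limma 3.58.1 in R 4.3.3 (two-sided, Benjamini-Hochberg adjusted p under 0.05 over all probes), after tests on simulated data. Correlations over strains used 100000 permutations. Signal over background is unknown, so the number of arrays limits the precision. Place correction subtracted, on each array, the median of probes whose identifier has the same remainder after division by 8. Other alternatives were centring, array weights, robust regression, a mean beyond 0.2, removal of components and left-out strains.

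The members and lists were chosen with earlier results of these data known. The genes named were the chains, the 10 highest and 5 lowest by mean r with them, per list at most 4 by absolute mean and at most 4 by absolute mean r, and the 3 nearest measured genes on either side. Cases outside this rule are said to be so.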

Additional observations from a re-analysis of the deposited data

How the results depend on the processing

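The panel mean of Fga kept its sign under all 6 alternatives, and lost its call only when tested for a mean beyond 0.2 (-0.12, limma adjusted p = 1.00). That of Fgb turned to -0.022 with the correction for place (limma adjusted p = 0.714). That of Fgg passed without the 4 strains (0.25) and with array weights (0.26, limma adjusted p = 0.00697). The r of Fga with Fgb passed under the alternatives tried except within strains 1 to 14 (0.39), within strains 15 to 42 once strains 15 and 36 were also left out (0.25, permutation p = 0.362), and when some single strains were left out of the 27. The r of Fga with Fgg passed without the 4 strains (0.51), without strains 28, 40 and 42 (0.55), without the 4 and the first component (0.50), without the 4 and with the correction for place (0.51) and within strains 15 to 42 (0.56). In the same order the r of Fgb with Fgg was 0.42, 0.48, 0.57, 0.39 and 0.61. Of these settings, only leaving out the 4 strains was planned beforehand. All of them lack strains 28, 40 and 42, so none tests how Fgg relates to the other chains over all 31 strains. With the first 3 components removed from 31 arrays the values were 0.58 for Fga with Fgb, 0.30 for Fga with Fgg and 0.38 for Fgb with Fgg (adjusted p = 0.00231, 0.103 and 0.0568).

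Leaving out single strains of the 31 gave 0.52 to 0.63 for Fga with Fgb, 0.032 to 0.33 for Fga with Fgg and -0.0074 (without strain 36) to 0.24 for Fgb with Fgg. Leaving out single strains of the 27 gave 0.39 to 0.53 (24 of 27 passed), 0.42 to 0.58 (26 of 27) and 0.32 to 0.54 (23 of 27); the lowest were without strain 36, strain 8 and strain 36. The number of probes that followed Fgg was 7729 over 31 strains, 2569 over 27 strains, 3677 with array weights, 2 without the first component, 1 without the first 3 components and 0 over 27 strains without the first component (1473 at an unadjusted p under 0.05 by limma). For Fgb it was 0 over 31 strains by limma (893 at an unadjusted p under 0.05), 1 over 27 strains, 1 over 27 strains without the first component and 2 without the first 3 components. The cause of these changes was not tested. No paired analysis was possible because the strains form a single group.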

Other observations

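Relatives and receptors of fibrinogen were also followed. Counts of higher and lower probes are to be read against 37.4% of all probes higher and 37.6% lower by limma, and counts on Fgg against 35.5% of all probes over 31 strains and 11.8% over 27. Of 7 probes of genes with a fibrinogen-like domain, 2 were higher than the C57BL/6J reference, 2 lower and 3 not past the limma test. Mfap4, a matrix protein with such a domain, was higher at 0.32 ± 0.04 (SE, n = 31) and had an r of 0.38 with Fga, 0.17 with Fgb and 0.75 with Fgg over 27 strains (0.21, -0.0047 and 0.63 over 31). Fcnb, a ficolin of innate immunity, was higher at 0.49 ± 0.04 in 31 of 31 strains, while Fcna, the ficolin of macrophages, was lower at -0.31 ± 0.05. Of 10 probes of 8 receptor genes, 6 were higher, 3 lower and 1 not past the test. Itgam, the alpha subunit of the leukocyte integrin Mac-1 that binds the gamma chain, was lower at -0.15 ± 0.03 and had an r of 0.69 with Fgg, 0.26 with Fga and 0.24 with Fgb over 27 strains. Over 31 strains its r with Fgg was 0.37 and not called (limma adjusted p = 0.110).

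Negative acute phase genes had median r values of 0.22 with Fga, 0.16 with Fgb and 0.16 with Fgg over 27 strains in 14 probes of 11 genes, and of 0.08, 0.04 and 0.37 over 31. Cyp7a1, the rate-limiting enzyme of bile acid synthesis, had 0.46, 0.43 and 0.42 over 27 strains and 0.40, 0.36 and 0.37 over 31, and was lower than the reference at -0.23 ± 0.04 (SE). Several of the 14 probes stand for Trf alone, which weighs on the medians. The 2 probes called on Fgg over 27 strains were both of Trf (r = 0.56 and 0.54, limma adjusted p = 0.0190 and 0.0297). Interleukin-1 class genes, 10 probes of 9 genes, were higher at 3 probes, lower at 3 and not past the test at 4, with median r values of 0.13, 0.05 and 0.18 over 27 strains and 0.03, 0.03 and 0.38 over 31. Among marker lists of other cells, Kupffer cell markers were higher at 7 of 11 probes and lower at 1, adipose markers at 0 and 3 of 6, exocrine pancreas markers at 4 and 4 of 10, erythroid markers at 1 and 1 of 3 and platelet markers at 2 and 2 of 6. Over 31 strains 6 of 11 Kupffer cell probes followed Fgg by limma, 4 in the same direction, among them Adgre1 (r = 0.60). Of the 6 adipose probes 4 followed it, 1 in the same direction and 3 in the opposite one. Adipoq (r = -0.62), whose probe is at an every 8th place, was among those 3. Of the 6 platelet probes 0 followed it by limma (0 at an unadjusted p under 0.05). Over 27 strains 0 probes of these 3 lists followed it by limma (4 Kupffer cell, 0 adipose and 0 platelet probes at an unadjusted p under 0.05), with an r of 0.34 for Adgre1 and -0.22 for Adipoq (limma adjusted p = 0.230 and 0.444). Prss2 of the pancreas list had an r of 0.59 with Fgg over 31 strains and 0.52 over 27, Slc4a1 of the erythroid list -0.47 and -0.56, and Cps1 of the hepatocyte list 0.40 and 0.68, each called in both sets; their part in the level of Fgg was not tested.

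The only probe that passed on Fgb over 27 strains was 4931413K12Rik, in the opposite direction (r = -0.78; limma adjusted p = 0.00499). Without the first component, Etfa, an electron transfer flavoprotein subunit, was 1 of the 2 probes that passed on Fgg over 31 strains (limma adjusted p = 0.0243), and its r with Fgg was 0.73 as deposited; the other probe has no gene listed. Both genes were named after their values were seen.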
